A study of Mus musculus with 4 samples.

Results

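TCRα joins in which the trimmed end of the V segment meets the trimmed start of the J segment with no inserted nucleotide were examined in splenic CD4 T cells of WT and Tet2/3 DKO mice. A join was placed in this class when the J segment began no later in the read than the position at which the V segment ended, among rows with a CDR3 that kept the reading frame. Over the 4 libraries 40496 of 158312 in-frame rows met this rule, and the other 117816 carried at least 1 inserted nucleotide. A row is a clone as deposited, defined by its own sequence over the whole variable domain, and 189388 TCRα rows were deposited in all. No row had a J start before its V end, so every one of the 40496 no-insertion rows had a distance of exactly 0. The aligner can carry a segment through bases that differ from it. In 17529 of the no-insertion rows it listed at least 1 mismatch to the V or J segment within CDR3, and 22967 rows had none, and the main values are also given without the mismatched rows.

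The libraries came from live TCRβ+ CD4+ CD25- cells sorted from the spleen after depletion of B cells and without cells that bind the αGalCer-loaded CD1d tetramer, that is without iNKT cells. There were 2 WT and 2 Tet2/3 DKO biological replicates, from mice with a mean age of 25 days. Tet2/3 DKO mice were Tet2-/- Tet3 flx/flx CD4Cre, so TET2 was absent from the germline on and TET3 was removed by the Cre driven from the CD4 gene at the double positive stage, the stage at which TCRα is assembled. The comparison between genotypes asked whether joins made around the time of TET3 loss differ in their make-up, and p-values measured the spread between 2 libraries per genotype. Libraries held 172506 to 287799 TCRα reads.

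TCRα genes are assembled by the RAG recombinase, which cuts next to 1 V and 1 J segment and leaves hairpin ends that are opened, trimmed and sealed by non-homologous end joining. Opening a hairpin away from its tip leaves a few palindromic (P) nucleotides, which are templated by the segment itself. Terminal deoxynucleotidyl transferase (TdT) adds non-templated (N) nucleotides between the ends, and a join that received none keeps the bases of the segments alone. The class used here is set by where the aligner placed the borders, which is not the same as a join shown to hold germline bases only. The α locus has no D segment, so each chain has a single such border, and it lies in CDR3, the loop that contacts peptide.

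The no-insertion joins with the highest mean share of reads among those found in all 4 libraries are shown first because they hold the forms described below, with the part from V (and its P nucleotides) in lower case and the part from J (and its P nucleotides) in capitals, 5′ to 3′. None of these 6 joins had a mismatch to its segments.
TRAV14D-1 with TRAJ13, both ends untrimmed: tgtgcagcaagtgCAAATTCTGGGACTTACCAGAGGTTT
TRAV7-2 with TRAJ22, with 1 P nucleotide of TRAJ22: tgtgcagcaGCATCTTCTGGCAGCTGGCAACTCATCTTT
TRAV7-2 with TRAJ22, no P nucleotide: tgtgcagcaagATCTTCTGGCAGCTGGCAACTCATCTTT
TRAV7-2 with TRAJ6: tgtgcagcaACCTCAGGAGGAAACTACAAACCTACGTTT
TRAV7-2 with TRAJ15, with 1 P nucleotide of TRAV7-2: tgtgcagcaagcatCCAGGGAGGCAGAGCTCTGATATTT
TRDV1 with TRAJ37: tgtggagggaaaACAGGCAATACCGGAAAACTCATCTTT
For contrast, an insertion join found in all 4 libraries is given with its inserted base in capitals.
TRAV7-2 with TRAJ15, 1 inserted base: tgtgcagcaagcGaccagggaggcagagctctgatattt

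The join of TRAV14D-1 and TRAJ13, made of both complete germline ends, had 241 and 224 reads in WT, with 153 and 278 in Tet2/3 DKO. As a share of all TCRα reads this was 0.1397% and 0.103% in WT, with 0.0784% and 0.0966% in Tet2/3 DKO. The join of TRAV7-2 and TRAJ22 with the P nucleotide had 152 and 190 reads (0.0881% and 0.0878%) in WT, with 231 and 188 (0.118% and 0.0653%) in Tet2/3 DKO. The form without it had 95 and 120 reads (0.0551% and 0.0554%) in WT, with 153 and 134 (0.0784% and 0.0466%) in Tet2/3 DKO. As shares of reads, both TRAV7-2 joins overlapped between genotypes, and the TRAV14D-1 join was higher in both WT libraries. These joins were picked for their abundance, and no test was made on them. The TRDV1 join with TRAJ37 was different, since its 760 reads in WT replicate 1 stood beside 7, 2 and 8 reads in WT replicate 2, Tet2/3 DKO replicate 1 and Tet2/3 DKO replicate 2. TRDV1 is a V segment named for the δ chain that also joins to Jα segments.

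The share of no-insertion joins was close to 1 in 4 rows in every library. It was 25.9% of in-frame rows in WT replicate 1 (8446 of 32598), 25.5% in WT replicate 2 (10401 of 40841), 25.5% in Tet2/3 DKO replicate 1 (10080 of 39575) and 25.5% in Tet2/3 DKO replicate 2 (11569 of 45298). Wilson 95% intervals, which cover counting error only, ran from 25.4% to 26.4% in WT replicate 1 and from 25.1% to 25.9% in Tet2/3 DKO replicate 2. Tet2/3 DKO minus WT was -0.183 percentage points (exact two-sided permutation test over the 6 assignments of the labels, p = 1, n = 2 per genotype), and without WT replicate 1 it turned to 0.0381. Counted by reads it was -0.530 and counted by joins -0.249 percentage points, and in both the libraries of the genotypes did not overlap (exact permutation p = 0.333 for each). With this design no such test can give a p below 0.333, in this comparison and in the others between genotypes, and adjustment over them cannot lower it.

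A rearrangement that has lost the reading frame makes no receptor, and a cell can carry it beside a productive one. Among these out-of-frame rows the no-insertion share was 25.6% and 25.7% in WT, with 25.5% and 25.8% in Tet2/3 DKO. In-frame minus out-of-frame was -0.0542 ± 0.277 percentage points (SD, n = 4 libraries), with both signs among the libraries (exact two-sided sign-flip permutation test, p = 0.875). Counted by reads, the share was higher in-frame in each library, at 31.6% on average beside 26.3% out-of-frame. The sign-flip test cannot go below 0.125 with 4 libraries.

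Mismatched bases were much more frequent in no-insertion rows. The aligner listed a mismatch to V or J within CDR3 in 43.0% and 42.8% of no-insertion rows in WT, with 43.7% and 43.6% in Tet2/3 DKO, and in 4.99% and 5.14% of insertion rows in WT, with 5.25% and 5.35% in Tet2/3 DKO. The mismatches lay at both sides, with 21.4% of no-insertion rows differing from V and 23.0% from J on average. Out-of-frame rows had them in 41.3% of no-insertion and 6.31% of insertion rows. A segment carried through a differing base can itself place a row in the class, so this direction is partly set by the rule. Whether such bases were added, misread, belong to another allele or come from the other segment was not tested. Without the mismatched rows, an alternative chosen after the data were seen, the no-insertion share was 17.3% and 17.1% in WT, with 16.9% and 16.96% in Tet2/3 DKO, a difference of -0.297 percentage points (exact permutation p = 0.333). In-frame minus out-of-frame was then -0.697 percentage points, below 0 in 4 of 4 libraries (exact sign-flip permutation p = 0.125).

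Counted over all rows, no insertion was the most frequent single state of the border. On average over the 4 libraries 25.6% of in-frame rows had no inserted base, 16% had 1, 17.6% had 2, 16.2% had 3, 11.8% had 4 and 6.02% had 5. Rows with 12 or more inserted bases made up 0.139%. At each length the 4 libraries lay close together. Without the mismatched rows the order changed, since 17.1% had no inserted base, 17.2% had 1, 19.6% had 2 and 18.2% had 3, and 2 bases was the most frequent state in each library.

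**Figure D1:**
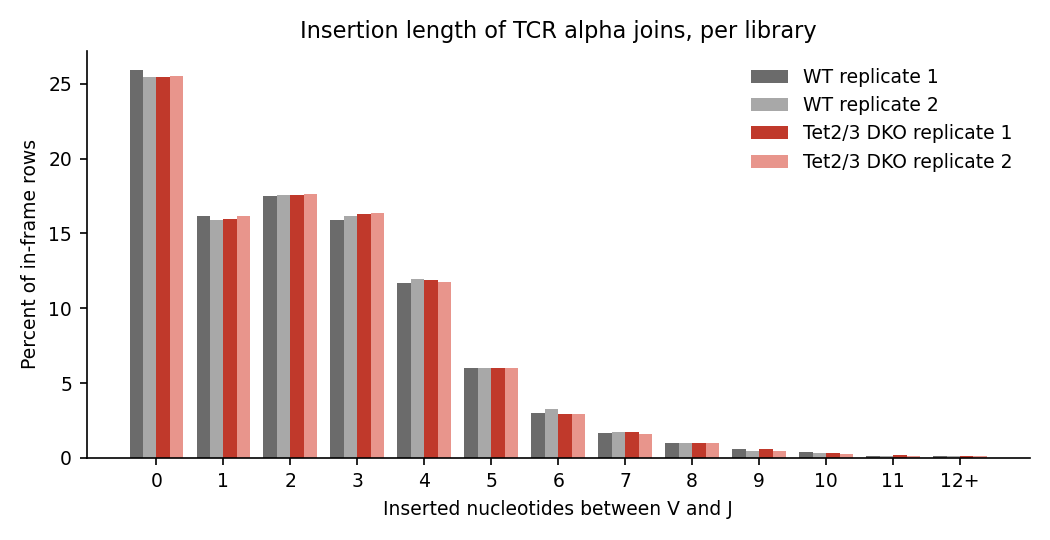
Percent of in-frame TCRα rows (y axis) by the number of inserted nucleotides between V and J (x axis), with 1 bar per library (grey WT, red Tet2/3 DKO). The bars at 0 reach 25.5% to 25.9% in all 4 libraries and are the tallest.

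The no-insertion joins were shorter than the insertion joins, but by less than the bases that the rule takes away. The mean CDR3 length of no-insertion rows was 39.2 and 39.3 nucleotides in WT, with 39.4 and 39.5 in Tet2/3 DKO, against 40.5 and 40.5 in WT, with 40.6 and 40.7 in Tet2/3 DKO for insertion rows. The difference was -1.21 ± 0.0324 nucleotides (SD, n = 4 libraries), shorter in 4 of 4 libraries, while insertion rows held on average 3.04 inserted bases. Inserted bases count towards CDR3 length, so this direction is partly set by the rule and no test is given. The difference was -1.45 nucleotides without the mismatched rows. The most frequent CDR3 length of no-insertion rows was 13 amino acids (33.2%), followed by 14 (26.1%) and 12 (19.7%). In insertion rows 14 amino acids (31.2%) and 13 (30.1%) lay closer together.

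Ends were trimmed less in no-insertion rows. They had lost 1.83 and 1.86 bases from V in WT, with 1.82 and 1.79 in Tet2/3 DKO, compared with 2.31 and 2.32 in WT, with 2.26 and 2.20 in Tet2/3 DKO for insertion rows. The difference was -0.449 ± 0.0262 bases at V and -0.607 ± 0.0311 bases at J (SD, n = 4 libraries), in the same direction in 4 of 4 libraries at both ends. Rows with no base lost from V made up 42.0% of no-insertion rows and 31.4% of insertion rows, and rows with no base lost from J made up 30.4% and 20.0%. Both ends were complete in 8.50% of no-insertion rows and 2.55% of insertion rows. The differences were -0.410 bases at V and -0.588 at J without the mismatched rows, and both ends were complete in 7.36% and 2.32%. An added base that happens to match the germline is counted by the aligner as part of the segment, which lowers the trimming and can place a row in the class. The direction is therefore partly set by the rule, no test is given, and the share of such bases was not tested.

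P nucleotides were found more often in no-insertion rows. They carried at least 1 P nucleotide in 39.6% and 39.7% of rows in WT, with 40.7% and 42.6% in Tet2/3 DKO, and insertion rows in 24.99% and 25.7% in WT, with 26.0% and 26.6% in Tet2/3 DKO. No-insertion minus insertion was 14.8 ± 0.851 percentage points (SD, n = 4 libraries), higher in 4 of 4 libraries. An added base that matches the P extension of a segment is read as a P nucleotide and can itself place a row in the class, so this direction is partly set by the rule and no test is given. Rows with a P nucleotide were also those with more mismatches, at 52.0% of no-insertion rows on average beside 37.3% of those without one. Among rows without a mismatch, P nucleotides were found in 34.4% of no-insertion and 25.3% of insertion rows on average, again higher in 4 of 4 libraries. Over all rows, a P nucleotide stood at V in 24.4% and at J in 17.5% of no-insertion rows. Within no-insertion rows the 2 Tet2/3 DKO libraries lay above the 2 WT libraries, by 1.97 percentage points (exact permutation p = 0.333, the smallest the design allows), and within insertion rows by 0.929 percentage points (exact permutation p = 0.333).

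The same order of genotypes was seen for trimming and length in both classes. In no-insertion rows, Tet2/3 DKO minus WT was -0.0438 trimmed bases at V, -0.0860 at J and 0.193 nucleotides of CDR3 length. In insertion rows it was -0.0804 at V, -0.114 at J and 0.215 nucleotides. Each of these differences had an exact permutation p of 0.333, the libraries of the genotypes did not overlap, and the difference between the classes in CDR3 length differed between genotypes by -0.0224 nucleotides (exact permutation p = 0.667).

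In joins with no P nucleotide, some bases at the border can be read as the end of V or as the start of J, because both germline ends hold them there. Such ambiguous bases were counted from the germline ends of the 2 segments, as most untrimmed rows showed them, and from the number of trimmed bases, whether or not the row's own bases matched, in 20570 in-frame joins over the libraries, where a join is a distinct combination of V, J and CDR3 nucleotide sequence in a library. On average over the libraries 46.8% of these joins had no ambiguous base, 27.7% had 1, 16.7% had 2, 6.45% had 3 and 1.90% had 4. The mean was 0.902 and 0.904 ambiguous bases in WT, with 0.914 and 0.888 in Tet2/3 DKO (exact permutation p = 1 between genotypes). In 3276 out-of-frame joins the means were 0.901 and 0.965 in WT, with 0.943 and 0.913 in Tet2/3 DKO, which overlapped with those of in-frame joins. In the 12659 in-frame joins without a mismatch the mean was lower, at 0.664 and 0.674 in WT, with 0.674 and 0.659 in Tet2/3 DKO, and 56.5% had no ambiguous base. Among joins found in all 4 libraries, the one with most ambiguous bases paired TRAV13D-2 with TRAJ18, and it is shown because its 5 ambiguous bases leave the border without a unique place. It had no mismatch.
TRAV13D-2 with TRAJ18, 5 ambiguous bases: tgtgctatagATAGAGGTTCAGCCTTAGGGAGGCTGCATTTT
It had 4 and 20 reads in WT, with 28 and 23 in Tet2/3 DKO.

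No-insertion rows held more reads than insertion rows, and this was seen in in-frame rows. The mean was 5.64 and 5.77 reads per no-insertion row in WT, with 5.31 and 6.81 in Tet2/3 DKO, and 4.22 and 4.21 reads per insertion row in WT, with 3.92 and 5.18 in Tet2/3 DKO. The ratio was 1.34 ± 0.0236 (SD, n = 4 libraries, exact sign-flip permutation p = 0.125). In out-of-frame rows the ratio was 1.04 ± 0.0362 and ranged from 1.00 to 1.08 among the libraries. The ratio of in-frame rows exceeded that of out-of-frame rows by 0.307 ± 0.0335, in 4 of 4 libraries (exact sign-flip permutation p = 0.125). The ratios were 1.54 in-frame and 1.06 out-of-frame on average without the mismatched rows. Counted by reads over all rows, no-insertion joins made up 31.9% and 31.9% of in-frame reads in WT, with 31.6% and 31.1% in Tet2/3 DKO. Their share of out-of-frame reads was 26.4% and 26.2% in WT, with 27.1% and 25.7% in Tet2/3 DKO. More RNA per cell, more cells of a clone and more separate clones that made the same join cannot be told apart in these bulk libraries. They had no molecular identifiers.

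The share of no-insertion joins was flat up to 4 reads per join and higher above that. Among in-frame joins with 1 read it was 21.3% and 22.0% in WT, with 22.5% and 21.4% in Tet2/3 DKO, and among joins with 20 or more reads it was 45.5% and 50.2% in WT, with 54.5% and 46.3% in Tet2/3 DKO. Joins with 2 to 4 reads lay at 21.4% to 21.7%, those with 5 to 9 at 26.0% to 28.4% and those with 10 to 19 at 38.4% to 42.9%. Without the mismatched joins it was 12.5% on average at 1 read, 12.7% at 2 to 4, 17.97% at 5 to 9, 33.5% at 10 to 19 and 43.6% at 20 or more. Over all joins, within the highest group the mean was 50.3% for 20 to 49 reads and 44.8% for 50 or more. Out-of-frame joins went from 24.0% on average at 1 read to 29.5% at 10 to 19 reads, and their highest group, with 20 or more reads, held only 19 to 68 joins per library. Of the 100 in-frame joins with most reads, 40 and 44 had no insertion in WT, with 51 and 37 in the Tet2/3 DKO libraries.

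**Figure D2:**
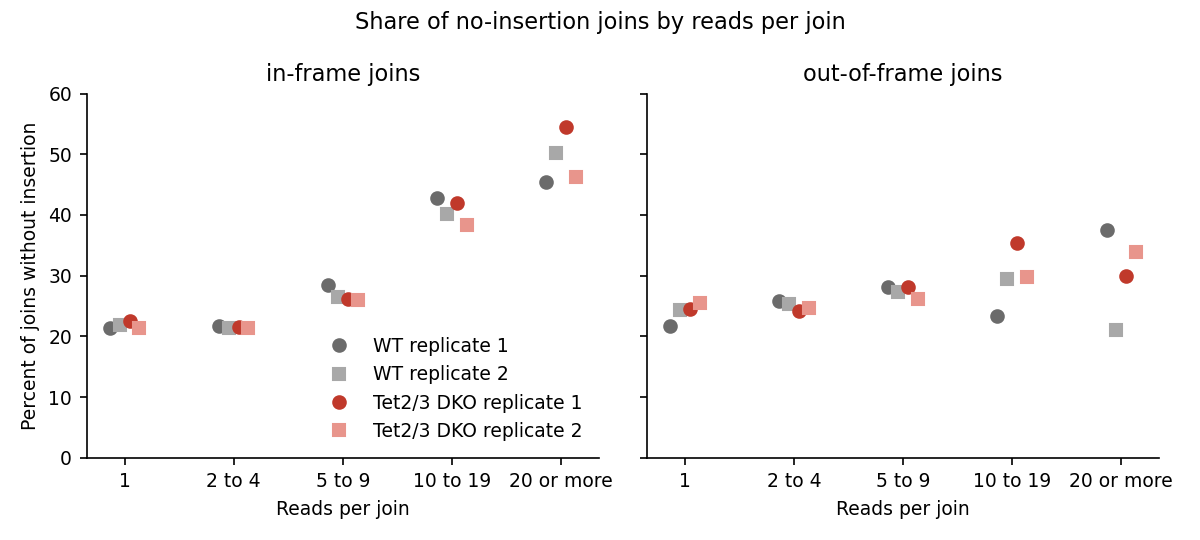
Percent of joins without insertion (y axis) by reads per join (x axis), for in-frame joins (left) and out-of-frame joins (right), with 1 point per library (grey WT, red Tet2/3 DKO). In-frame points lie at 21.3% to 22.5% at 1 read and at 45.5% to 54.5% at 20 or more reads, and out-of-frame points stay between 21.1% and 37.5%.

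The no-insertion join with most reads differed in each library. Besides the TRDV1 join of WT replicate 1 named above, WT replicate 2 had a join of TRAV6N-6 and TRAJ15 with 277 reads that was in no other library and had 1 mismatch to TRAJ15. In Tet2/3 DKO replicate 2 a join of TRAV7-3 and TRAJ33 had 1704 reads, or 0.592% of all TCRα reads of that library, with 6 reads in WT replicate 2 and none in the other 2 libraries. It is shown because it is the largest no-insertion join of the data. It also has 2 bases, in the part that the aligner gave to V, that differ from TRAV7-3. They belong to the last 3 bases of that part, ata, which TRAJ33 also holds there in the TRAV1 join given below. With the border 3 bases earlier all bases would match TRAV7-3 or TRAJ33, so the 2 mismatches depend on where the aligner placed the border.
TRAV7-3 with TRAJ33, 2 mismatches to TRAV7-3: tgtgcagataGCAACTATCAGTTGATCTGG
In Tet2/3 DKO replicate 1 the top join was the TRAV7-2 and TRAJ22 join with the P nucleotide, at 231 reads.

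The classes also differed in how often the same join was found in different libraries. Of the no-insertion joins of a library, 44.7% and 42.1% in WT, with 42.9% and 40.4% in Tet2/3 DKO were found in at least 1 of the other libraries, against 18.5% and 17.3% in WT, with 17.5% and 16.8% in Tet2/3 DKO of the insertion joins. The libraries of the classes did not overlap, and the difference was 25 ± 1.06 percentage points (SD, n = 4 libraries). Without the mismatched joins it was 37.1 percentage points, with 55.5% of no-insertion and 18.4% of insertion joins found elsewhere on average. The no-insertion joins with a mismatch were found elsewhere in 26.3% of cases. For joins found in all 4 libraries the difference was 7.43 percentage points over all joins and 11.6 without the mismatched ones. Values of the libraries depend on each other here, so no test was made. Of 26096 distinct no-insertion joins 824 (3.16%) were found in all 4 libraries, and of 94931 distinct insertion joins 538 (0.567%) were. Read the other way, 18.8% of the joins found in 1 library had no insertion, 37.8% of those in 2, 50.3% of those in 3 and 60.5% of those in all 4.

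Sharing was lower with each further inserted base up to 7. In another library were found, on average, 42.5% of joins with no insertion, 33.1% with 1 base, 22.2% with 2, 15.4% with 3, 9.33% with 4, 3.65% with 5, 2.29% with 6 and 1.08% with 7. The mean for 8 or more bases was 1.41%. Without the joins of TRAJ24, TRAV9-2 and TRAV9-4, a comparison chosen after the data were seen, the means were 42.6% with no insertion, 9.04% with 4 bases, 3.34% with 5, 1.31% with 6, 0.174% with 7 and 0.159% with 8 or more. None of 4321 distinct joins with 6 inserted bases or 2404 with 7 was found in all 4 libraries.

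**Figure D3:**
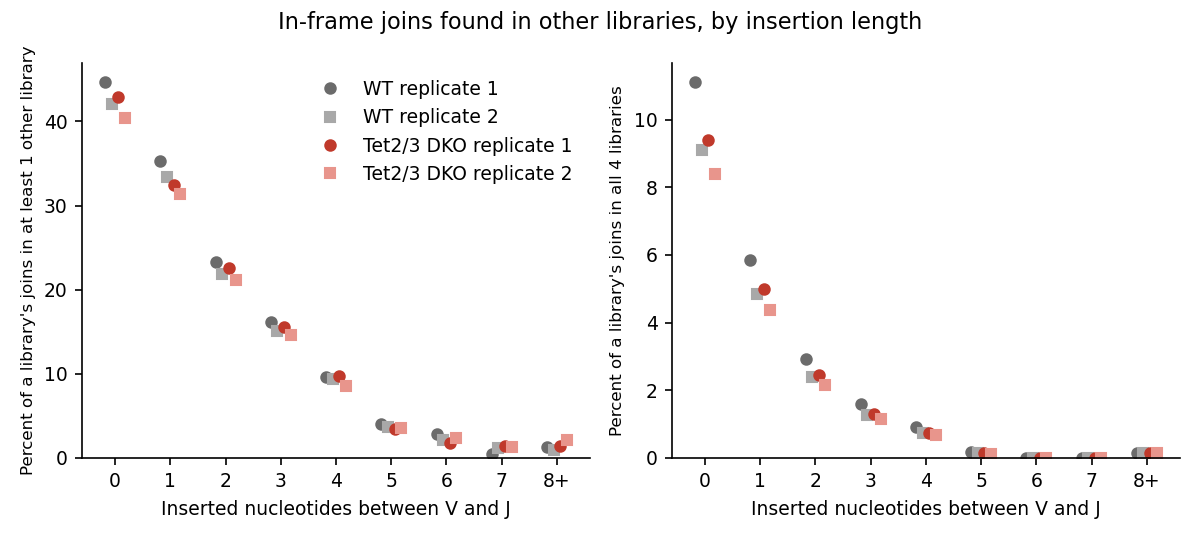
Percent of a library's in-frame joins (y axis) that were also found in at least 1 other library (left) or in all 4 libraries (right), by inserted nucleotides (x axis), with 1 point per library (grey WT, red Tet2/3 DKO). On the left the points lie at 40.4% to 44.7% with no inserted nucleotide and at 8.59% to 9.75% with 4.

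Reads per join and sharing moved together, so sharing was also compared at like numbers of reads. Among joins with 1 read, 25.1% of no-insertion and 10.7% of insertion joins were found in another library on average, and among joins with 20 to 49 reads 87.0% and 53.1% were. No-insertion joins were higher in all 6 groups of reads and in all 4 libraries. Out-of-frame joins, which were fewer, had the same order of classes at a lower level, with 9.44% of no-insertion and 1.77% of insertion joins found in another library, and 3 no-insertion joins and no insertion join found in all 4.

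Pairs of the same genotype shared about as many no-insertion joins as mixed pairs. The pair of WT libraries shared 1946 no-insertion joins, which was 26.3% of WT replicate 1 and 21.5% of WT replicate 2. The pair of Tet2/3 DKO libraries shared 2319, which was 26.5% of replicate 1 and 23.6% of replicate 2. The 4 pairs of a WT and a Tet2/3 DKO library shared 21% to 27.8% of the no-insertion joins of either library, and the shares of both same-genotype pairs lie in that range. Insertion joins were shared at 9.16% of WT replicate 1 in the WT pair and at 9.35% of Tet2/3 DKO replicate 1 in the Tet2/3 DKO pair. Divided by the product of both numbers of joins, the value for no-insertion joins was 8.44 to 8.80 times that for insertion joins over the 6 pairs. This ratio is larger than that of the percentages because the divisor is larger for the more numerous insertion joins.

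Within the class, sharing differed with the form of the border. Over all no-insertion joins, those with a P nucleotide were found in another library in 37.1% of cases on average, those with neither P nucleotide nor ambiguous base in 46.5%, with 1 ambiguous base in 47.2%, with 2 in 45.8%, with 3 in 42.6% and with 4 or more in 49.1%. Among joins without a mismatch the same shares were 49.01% with a P nucleotide, 54.9% with neither, 61.8% with 1 ambiguous base, 66.9% with 2, 71.3% with 3 and 78.7% with 4 or more. The joins with a P nucleotide were below those with neither in each library in both sets. The order by ambiguous bases was thus seen in the joins that match their segments and not over all joins.

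Several nucleotide joins can encode the same chain, meaning the same V, J and CDR3 amino acid sequence. Chains with at least 1 no-insertion join were encoded by several joins in 15.3% and 17.5% of cases in WT, with 16.2% and 18.5% in Tet2/3 DKO, and the other chains in 5.22% and 5.90% in WT, with 6.09% and 6.57% in Tet2/3 DKO. A chain with several joins has more chances to hold a no-insertion one, so these values are a description only.

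The invariant chains of 2 innate-like T cell types were present at low levels. iNKT cells, which see lipids on CD1d, use TRAV11 with TRAJ18, and were removed from the sort. Reads of their invariant chain in no-insertion joins numbered 14 and 53 in WT, with 8 and 8 in Tet2/3 DKO, and in insertion joins 20 and 18 in WT, with 6 and 4 in Tet2/3 DKO. These joins are shown because the same chain arose with and without insertion, with the inserted base alone in capitals in the second.
TRAV11 with TRAJ18, no insertion: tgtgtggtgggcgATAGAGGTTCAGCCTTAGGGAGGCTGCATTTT
TRAV11 with TRAJ18, 1 inserted base: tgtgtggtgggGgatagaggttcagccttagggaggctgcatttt
MAIT cells, which see vitamin B metabolites on MR1, use TRAV1 with TRAJ33. Their invariant chain had 11 and 11 reads in WT, with 22 and 3 in Tet2/3 DKO, from 3 distinct no-insertion joins. The main one, which had no mismatch, is shown, and the other 2 had 1 mismatch each.
TRAV1 with TRAJ33, no insertion, 3 ambiguous bases: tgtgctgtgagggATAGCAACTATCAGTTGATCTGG

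The share of joins without insertion differed between V segments. The make-up of no-insertion rows was tested against that of insertion rows with edgeR's quasi-likelihood test on counts of rows per segment, with each library as a block and Benjamini-Hochberg adjustment at 0.05. Added bases that the aligner reads as part of a segment can place rows in the class here too. How far this differs between V segments or between J segments was not tested. Of 96 TRAV and TRDV segments tested 24 passed (25%), of which 18 (18.8%) were higher and 6 (6.25%) lower in no-insertion rows. Without Tet2/3 DKO replicate 2, 14 passed, DESeq2 called 7, and the test on reads called 10. With edgeR's TMM scaling, which moved the median log2 difference of all segments from 0.11 to -0.0041, 10 were higher and 13 lower, so directions hold relative to the total of each class. Without the mismatched rows 24 passed again, 16 higher and 8 lower, of which 17 were among the 24 of all rows. In 47.0% to 47.9% of in-frame rows several V segments fitted, the near-identical copies of the duplicated V locus, and the first listed was used.

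TRAV7-2, which had the most no-insertion rows of any V segment, was also the one they were most depleted of among segments with at least 200 rows. Its no-insertion share was 18.3% and 19.7% in WT, with 19.4% and 18.4% in Tet2/3 DKO, below the share of all rows in every library. It made up 7.65%, 7.85%, 7.86% and 7.44% of no-insertion rows (WT replicates 1 and 2, then Tet2/3 DKO replicates 1 and 2) and 11.9%, 10.9%, 11.1% and 11.3% of insertion rows. The log2 ratio was -0.56 ± 0.03 (SE, edgeR adjusted p = 1.9e-56). TRAV7-2 lies at chr14:53390633-53391136 (GRCm38.p6, RefSeq annotation). TRAV6-6 (log2 -0.22, adjusted p = 1.2e-07), TRAV10 (-0.19, 0.0029), TRAV7-5 (-0.16, 0.00011) and TRAV14N-3 (-0.14, 0.020) followed, each lower in 4 of 4 libraries by the same edgeR test. Without WT replicate 2 TRAV10 (-0.16) and TRAV14N-3 (-0.12) no longer passed, and without Tet2/3 DKO replicate 2 neither did (-0.18 and -0.12). On reads TRAV6-6 and TRAV14N-3 turned to 0.0053 and 0.32, and without the mismatched rows TRAV14N-3 turned to 0.0072.

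Among V segments with at least 200 rows, the one most enriched in no-insertion rows was TRAV16D-DV11 (chr14:53047287-53047821), with a no-insertion share of 30.8% and 44.7% in WT, with 46.3% and 32.7% in Tet2/3 DKO. It was above the share of all rows in each library, with a wide spread that lay within both genotypes (log2 ratio 0.86 ± 0.13 (SE), edgeR adjusted p = 1.8e-09). Its relative TRAV16N had 34.3% and 33.6% in WT, with 33.0% and 32.0% in Tet2/3 DKO (log2 0.52 ± 0.05, edgeR adjusted p = 4.0e-18). TRAV6D-3 (log2 0.69, adjusted p = 0.00016), TRAV8N-2 (0.53, 0.033), TRAV1 (0.51, 9.5e-05) and TRAV8D-1 (0.50, 0.00021) were also higher in 4 of 4 libraries by edgeR. TRAV8N-2 no longer passed with TMM scaling (0.41), without Tet2/3 DKO replicate 1 (0.51), without Tet2/3 DKO replicate 2 (0.38) or without the mismatched rows (0.39). On reads TRAV16D-DV11 (0.68), TRAV6D-3 (0.48), TRAV1 (0.40) and TRAV8D-1 (0.0081) did not pass.

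The last 12 bases of these segments, read from rows in which they were not trimmed, are shown because they are the bases that take part in the join, each with its no-insertion share over all 4 libraries. Segments with the same end could differ in share. The end of TRAV7-2 and TRAV10 is also that of TRAV10D, at 26.2%. The end of TRAV14N-3 is shared by 7 TRAV14 segments, at 23.8% to 28.4%.
TRAV7-2, no-insertion share 18.96%: gtgcagcaagca
TRAV10, 23.1%: gtgcagcaagca
TRAV6-6, 22.8%: tgctctgggtga
TRAV7-5, 23.6%: gtgcagtgagca
TRAV14N-3, 23.8%: gtgcagcaagtg
TRAV8D-1, 32.7%: gtgctactgatg
TRAV8N-2, 33.2%: gtgctactgatg
TRAV1, 32.8%: tgctgtgaggga
TRAV16N, 33.1%: tatgagagaggg
TRAV6D-3, 35.7%: tgctatgagtga
TRAV16D-DV11, 38.5%: tatgagagaggg

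By family, 5 of 7 TRAV4 segments, 3 of 5 TRAV8 segments and both TRAV16 segments were higher in no-insertion rows, beside 18.8% of all tested. The no-insertion share was 29.8% on average for TRAV4, 30.1% for TRAV8 and 34.2% for TRAV16. Without the mismatched rows it was 20.8%, 19.1% and 26.8%, beside 17.1% of all such rows. The median log2 ratio was 0.30, 0.38 and 0.69 in these families, beside 0.11 over all tested segments. In TRAV7, the family with most rows, 1 of 11 segments was higher and 2 were lower, and its share was 22.3% and 22.6% in WT, with 22.7% and 22.5% in Tet2/3 DKO, or 14.01% on average without the mismatched rows. None of the 7 TRAV12 or the 10 TRAV13 segments passed in either direction. Copies within a family share reads, so the counts within a family are not independent.

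**Figure D4:**
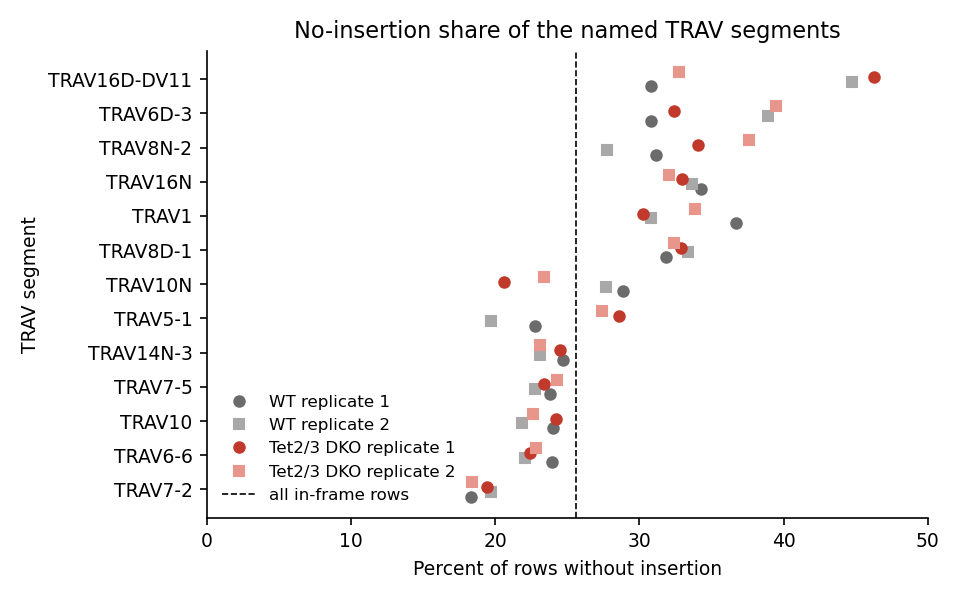
Percent of in-frame rows without insertion (x axis) for the named TRAV segments (y axis), with 1 point per library (grey WT, red Tet2/3 DKO) and a dashed line at the mean of all in-frame rows, 25.6%. All points of TRAV7-2 lie below the line, at 18.3% to 19.7%, and all points of TRAV16D-DV11 above it, at 30.8% to 46.3%.

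The share of joins without insertion also differed between J segments. Of 43 TRAJ segments tested 29 passed by edgeR (67.4%), with 17 (39.5%) higher and 12 (27.9%) lower in no-insertion rows. With TMM scaling 14 were higher and 14 lower, and DESeq2 called 9 higher and 12 lower. The test on reads called 14 segments. With the mismatched rows left out 23 passed, 13 higher and 10 lower, of which 19 were among the 29 of all rows.

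TRAJ5 (chr14:54213777-54213838) had the highest no-insertion share of the segments with at least 200 rows, at 33.1% and 43.6% in WT, with 37.9% and 42.4% in Tet2/3 DKO. The log2 ratio was 0.93 ± 0.11 (SE, edgeR adjusted p = 2.4e-13). TRAJ53 had 34.3% and 33.8% in WT, with 33.6% and 38.8% in Tet2/3 DKO (log2 0.66 ± 0.07, edgeR adjusted p = 5.6e-14). TRAJ16 (0.55), TRAJ7 (0.48), TRAJ18 (0.47) and TRAJ56 (0.46) followed, all higher in 4 of 4 libraries by edgeR. TRAJ18, the J segment of the invariant iNKT chain, had 32.8% and 34.1% in WT, with 30.2% and 31.9% in Tet2/3 DKO. On reads TRAJ5 did not pass (0.78).

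Among the J segments with a lower no-insertion share, TRAJ24 stood far from the rest. Its share was 3.65% and 2.62% in WT, with 3.59% and 2.80% in Tet2/3 DKO (log2 -3.41 ± 0.12 (SE), edgeR adjusted p = 4.5e-54). In 80.1% of its rows with 3 or more inserted bases the same 3 bases stood next to J, where no other J segment with 100 such rows exceeded 33.0%, and its mean trimming was 0.114 bases. In most TRAJ24 rows with 3 or more inserted bases, the 3 bases next to J are thus of 1 sequence. The part of the aligner's reference in the low share was not tested. TRAJ44 had 21.4% and 21.1% in WT, with 21.4% and 18.4% in Tet2/3 DKO (log2 -0.41 ± 0.08, edgeR adjusted p = 1.1e-06). TRAJ47 (-0.39), TRAJ37 (-0.38), TRAJ45 (-0.36) and TRAJ27 (-0.31) were also lower in 4 of 4 libraries by edgeR. On reads TRAJ47 (-0.51), TRAJ37 (-0.30) and TRAJ27 (-0.28) did not pass, nor did TRAJ45 without rows that hold a P nucleotide (-0.22).

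The first 12 bases of the J segments are shown for the same purpose as the V ends, read likewise from untrimmed rows. For TRAJ24 they are the bases at which the aligner began J, and the repeated 3 bases described above stand directly before them.
TRAJ5, no-insertion share 39.7%: ggggacacaggt
TRAJ53, 35.2%: ggaacagtggag
TRAJ16, 33.5%: gcaacttcaagt
TRAJ7, 32.4%: ggactacagcaa
TRAJ18, 32.2%: tagatagaggtt
TRAJ27, 21.7%: taacaccaatac
TRAJ37, 20.95%: taacaggcaata
TRAJ47, 20.8%: gactatgcaaac
TRAJ44, 20.5%: gttactggcagt
TRAJ24, as placed by the aligner, 3.13%: tgccagtttggg

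The J segments with most no-insertion rows were TRAJ31, TRAJ23 and TRAJ22, all in the middle of the Jα array. TRAJ31 had 2680 no-insertion rows of 11056 and was slightly lower (log2 -0.10 ± 0.03 (SE), edgeR adjusted p = 0.0051), and it no longer passed without Tet2/3 DKO replicate 1 (-0.084) or replicate 2 (-0.096), without rows that hold a P nucleotide (-0.022) or without the mismatched rows (-0.064), and on reads it turned to 0.045. TRAJ22 had 1853 of 6676 and was slightly higher (0.16 ± 0.05, edgeR adjusted p = 0.0047), and without rows that hold a P nucleotide its value was -0.023, and it did not pass with TMM scaling (0.12) or without the mismatched rows (0.0095). TRAJ23 did not pass (log2 -0.067, edgeR adjusted p = 0.18) and passed with TMM scaling (-0.11).

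By place in the array, C-proximal segments (TRAJ20 and below) had a no-insertion share of 28.4% and 27.9% in WT, with 28.0% and 27.7% in Tet2/3 DKO. Central segments (TRAJ21 to TRAJ40) had 24.2% and 23.6% in WT, with 23.4% and 24.1% in Tet2/3 DKO. V-proximal segments (above TRAJ40) had 27.1% and 27.2% in WT, with 27.5% and 26.6% in Tet2/3 DKO. The central group was lowest in each library. Of all 43 TRAJ segments tested 39.5% were higher and 27.9% lower. Of C-proximal segments 8 of 13 were higher and 2 lower in no-insertion rows, of central ones 3 of 17 were higher and 7 lower, and of V-proximal ones 6 of 13 were higher and 3 lower, with median log2 ratios of 0.28, -0.078 and 0.089, beside 0.035 over all tested. Early rearrangements of a thymocyte use V-proximal Jα segments, and later ones on the same allele move towards the constant gene. The mean TRAJ number of no-insertion rows was 29.2 and 29.1 in WT, with 29.1 and 28.7 in Tet2/3 DKO, lower than that of insertion rows by 0.215 ± 0.0798 (SD, n = 4 libraries) in 4 of 4 libraries (exact sign-flip permutation p = 0.125). With the mismatched rows left out the shares were 19.04% for C-proximal, 15.5% for central and 18.7% for V-proximal segments on average, the central group was again lowest in each library, and the TRAJ number was lower by 0.0938 on average, with both signs among the libraries (exact sign-flip permutation p = 0.5).

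**Figure D5:**
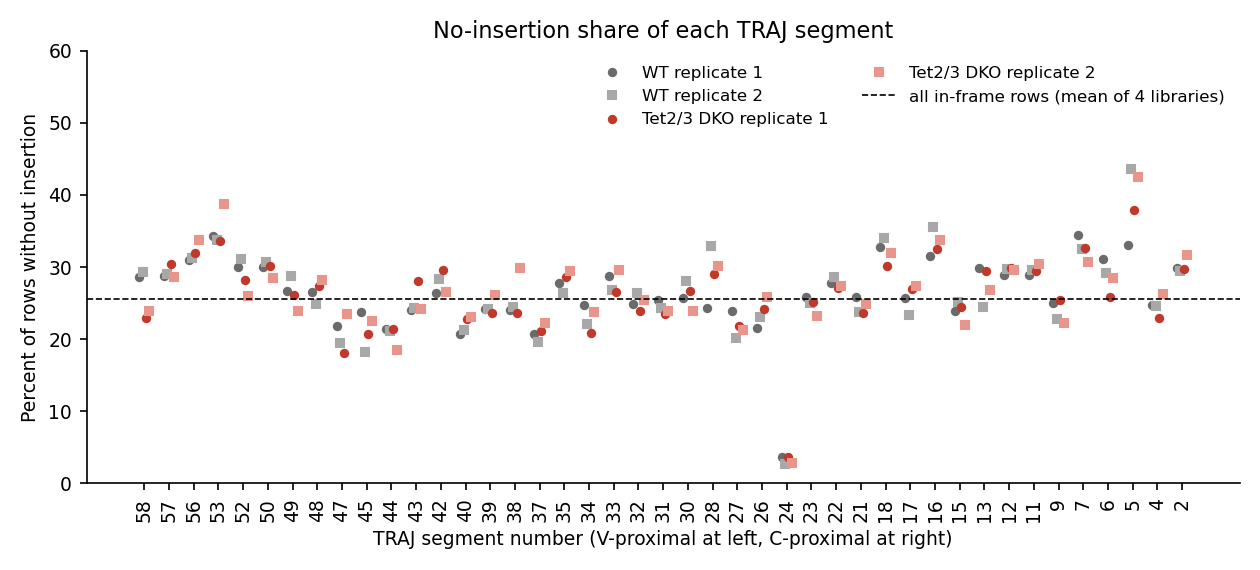
Percent of in-frame rows without insertion (y axis) for each TRAJ segment with at least 200 rows (x axis, ordered from V-proximal to C-proximal), with 1 point per library (grey WT, red Tet2/3 DKO) and a dashed line at the mean of all in-frame rows, 25.6%. TRAJ24 lies at 2.62% to 3.65%, and the other segments lie between 18.1% and 43.6%.

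No segment passed the test of whether the no-insertion ratio itself differed between genotypes. By edgeR's test of the interaction of class and genotype 0 of 96 TRAV and TRDV segments (0%) and 0 of 43 TRAJ segments (0%) passed, 4 and 1 had an unadjusted p under 0.05, and DESeq2 called 0 in both tables, with 0 and 4 under an unadjusted 0.05. The smallest p belonged to TRAV5-1, whose no-insertion share was 22.8% and 19.7% in WT, with 28.6% and 27.4% in Tet2/3 DKO. The log2 ratio was higher in Tet2/3 DKO by 0.56 ± 0.17 (SE, edgeR adjusted p = 0.11), and the genotypes did not overlap. Without rows that hold a P nucleotide, an alternative chosen after the data were seen, it was 0.79 (edgeR adjusted p = 0.013), without the mismatched rows 0.49 (0.87), and over the alternatives the value ran from 0.39 to 0.79 and the adjusted p from 0.013 to 0.98. TRAV10N had 28.9% and 27.7% in WT, with 20.6% and 23.4% in Tet2/3 DKO (log2 -0.46 ± 0.16, edgeR adjusted p = 0.25). Of the J segments, TRAJ58 had 28.6% and 29.3% in WT, with 23.0% and 23.9% in Tet2/3 DKO (log2 -0.40 ± 0.15, edgeR adjusted p = 0.47), and TRAJ26 had 21.6% and 23.0% in WT, with 24.1% and 25.9% in Tet2/3 DKO (0.22 ± 0.13, edgeR adjusted p = 0.84). Without the mismatched rows TRAJ26 was 0.39 higher in Tet2/3 DKO (edgeR adjusted p = 0.060), and 0 V and 0 J segments passed.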

How the data were processed

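TCRα transcripts of 4 libraries were amplified by 5′ RACE (SMARTer mouse TCR kit) and sequenced without molecular identifiers. The authors used fastp 0.21.0 on the reads and MiXCR for clone assembly. They deposited for each clone a count of reads, the fraction this makes of the chain's total, and reference points that place V end and J start. The deposited fraction equalled the share of the counts in each table and was not used further. TCRβ tables were not used here. Libraries held 172506 to 287799 TCRα reads, and 2.50% to 3.83% of rows without a CDR3 were left out.

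P nucleotides counted as part of V or J, as the aligner places them. Mismatches within CDR3 were read from the aligner's list for the first V and J hits, whose reference includes the P nucleotides. Rows were merged into joins by V, J and CDR3 nucleotide sequence where stated. Segment tests used edgeR 4.0.16 (quasi-likelihood, column totals as library sizes, segments with at least 10 rows) and DESeq2 1.42.0, checked on simulated data, with each library as a block, with R 4.3.3, numpy 2.4.6, pandas 2.3.3 and scipy 1.17.1. Segment positions are from RefSeq (GRCm38.p6, the mm10 build named in the submitters' processing notes). All 101 V and 44 J names matched.

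The joins examined, the lists and the tests were chosen with earlier results of these data known. Named segments are those with most no-insertion rows (3 V, 3 J), up to 6 per table with the largest rise and fall among segments past the threshold, the same way in 4 libraries and with at least 200 rows, and the 2 with the smallest interaction p. Named joins are the 6 with the highest mean share of reads in all 4 libraries, the top join of each library, the one with most ambiguous bases, insertion joins for contrast and the invariant chains.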

Additional observations from a re-analysis of the deposited data

How the results depend on the processing

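Comparisons of the share, CDR3 length, trimming and TRAJ number were recomputed with reads as weights, with rows merged into joins, with at least 2 reads per row or join, without stop codons, and without rows of P nucleotides, of TRAJ24, TRAV9-2 and TRAV9-4, or with a mismatch to V or J within CDR3, the last 3 chosen after the data were seen. The alternative that leaves out overlapping ends gave no value of its own, since no row had a distance below 0. Weighted by reads, in-frame minus out-of-frame turned to 5.28 percentage points (exact sign-flip permutation p = 0.125). Leaving out each library in turn, it ranged from -0.184 to 0.0213, Tet2/3 DKO minus WT from -0.404 to 0.0381 percentage points, turning sign without WT replicate 1, the CDR3 difference from -1.22 to -1.20, trimming from -0.460 to -0.439 at V and from -0.617 to -0.593 at J, and the TRAJ number from -0.237 to -0.176.

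The excess of 25 percentage points in no-insertion joins found in another library was 26.7 by CDR3 nucleotides only, 29.8 with at least 10 reads, 28.9 without P nucleotides, 37.1 without mismatched joins, and 21.7 to 22.2 with a library left out. For joins found in all 4 libraries the excess of 7.43 was 10.4 by amino acids, 12.6 by CDR3 nucleotides only, 13.2 with at least 10 reads 9.15 without P nucleotides and 11.6 without mismatched joins, and 10.05 to 10.4 for joins found in all remaining libraries with 1 left out.

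V segments past the threshold numbered 7 by DESeq2, 10 on reads and 14 to 24 with a library left out (14 without Tet2/3 DKO replicate 2), and J segments 14 on reads and 20 to 25 with a library left out. On reads 3 of the 24 V and 5 of the 29 J calls changed sign. Among named segments, on reads TRAV6-6 turned to 0.0053, TRAV14N-3 to 0.32 and TRAJ31 to 0.045 on the log2 scale, TRAJ22 to -0.023 without P nucleotides, and TRAV14N-3 to 0.0072 without mismatched rows. The interaction with genotype gave 1 V segment without P nucleotides and 0 in the other alternatives. With the replicate number as a block on the no-insertion term, it gave 0 V and 0 J segments. Same-numbered libraries share only a number, and their deviations correlated by 0.14 over 71 V and 0.11 over 43 J segments.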

Other observations

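TRAJ24 was not alone in the sequence next to its border. TRAV9-2 had 1 no-insertion row of 56, and in 98.2% of its 55 rows with 3 or more inserted bases the same 3 bases followed V. TRAV9-4 had 42 no-insertion rows of 168, and the same 3 bases followed V in 54.0% of its 87 such rows. Leaving out these 2 V segments and TRAJ24, a choice made after the data were seen, kept 23 of 24 V calls and 27 of 29 J calls.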
